A study of Mus musculus with 6 samples.

Results

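The primed epiblast genes described here are 8 genes, Otx2, Pou3f1, Sall2, Sox3, Foxd3, Lef1, Fgf5 and Pim2, taken by name from the array annotation with every probe set annotated to them. They are 8 of 18193 genes with a probe set of their own on the array, and they have 12 probe sets, all annotated to the member alone. Otx2, Sall2, Foxd3 and Pim2 have 1 probe set each, and Pou3f1, Sox3, Lef1 and Fgf5 have 2 each.

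Expression was measured on 6 Affymetrix mouse arrays of 129/B6 hybrid embryonic stem cells. The groups were Yaf2kd OHT+ and Yaf2kd OHT- (2 arrays each, from clones 3086 and 3087), and Yaf2wt OHT+ and Yaf2wt OHT- (1 array each, from clone 3031). OHT+ cells had 4-hydroxytamoxifen (OHT) at 0.8 µM over 24 hours so that Rybp would be depleted, and the labels call them Rybp mutant. OHT- cells were untreated, and the labels call them wild type for Rybp. The Yaf2kd clones are labelled both as knockdown and as Yaf2 mutant. Rybp and the related protein Yaf2 belong to variant forms of Polycomb repressive complex 1. Each clone is a single line with 1 array per condition, so a Yaf2 effect and a difference between clones cannot be told apart. No OHT-treated cells with intact Rybp were among the arrays used here, so Rybp loss and the drug itself cannot be told apart.

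Mouse embryonic stem cells correspond to the naive epiblast of the blastocyst, and after implantation the epiblast passes through a formative into a primed state. In that passage the homeodomain factor Otx2 and the POU factor Pou3f1, also called Oct6, come up and occupy enhancers that naive cells do not use, while naive factors such as Klf4, Esrrb and Tfcp2l1 go down. Fgf5, a secreted fibroblast growth factor, is the classical marker of the primed epiblast. Cultures kept with serum and leukaemia inhibitory factor, as these were, hold cells of varied state.

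Promoter windows of 250 bases before the annotated start were available for 6 of the 8 genes, from RefSeq on build GRCm38.p6. Otx2 has 4 such windows, Lef1 has 4, Sall2 has 2, and Foxd3, Fgf5 and Pim2 have 1 each. The windows of Otx2 and Sall2 are shown because these genes were lower with OHT in every clone, and those of Foxd3 and Pim2 as single windows in which searched letters occur. Where a gene has several windows, the one with the most CpG dinucleotides is shown. Capitals mark matches, on either strand, to the E-box CACGTG, the E2F core GCGGGA, the bicoid-class homeodomain motif TAATCC and the octamer ATGCAAAT.
Otx2 chr14:48665110-48665359 (minus strand): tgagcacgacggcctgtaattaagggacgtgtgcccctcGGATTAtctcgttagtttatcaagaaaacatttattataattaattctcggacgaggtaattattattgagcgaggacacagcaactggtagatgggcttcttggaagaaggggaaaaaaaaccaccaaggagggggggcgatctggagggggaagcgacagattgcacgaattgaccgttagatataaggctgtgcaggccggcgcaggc
Sall2 chr14:52316324-52316573 (minus strand): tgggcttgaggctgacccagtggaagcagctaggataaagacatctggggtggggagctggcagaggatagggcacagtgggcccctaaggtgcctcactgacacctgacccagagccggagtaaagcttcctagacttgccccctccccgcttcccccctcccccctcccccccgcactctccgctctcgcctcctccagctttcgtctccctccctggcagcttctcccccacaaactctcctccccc
Foxd3 chr4:99656049-99656298 (plus strand): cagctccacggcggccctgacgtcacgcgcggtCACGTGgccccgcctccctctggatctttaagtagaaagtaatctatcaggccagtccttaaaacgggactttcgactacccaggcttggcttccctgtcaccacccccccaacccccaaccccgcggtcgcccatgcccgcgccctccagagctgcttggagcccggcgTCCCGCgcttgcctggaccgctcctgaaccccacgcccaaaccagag
Pim2 chrX:7878056-7878305 (plus strand): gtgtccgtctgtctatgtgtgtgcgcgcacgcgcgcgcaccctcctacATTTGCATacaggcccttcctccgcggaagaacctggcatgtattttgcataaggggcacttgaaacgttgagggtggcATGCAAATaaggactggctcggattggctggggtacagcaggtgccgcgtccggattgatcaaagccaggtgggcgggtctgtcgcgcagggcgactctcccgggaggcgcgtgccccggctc

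The shown Otx2 window holds 1 match to TAATCC, letters that Otx2 is known to bind, and the other 3 Otx2 windows hold none of the 4 motifs. Neither Sall2 window holds any of them. The Foxd3 window holds 1 E-box and 1 E2F core, and the Pim2 window holds 2 octamers. Of the 4 Lef1 windows, none of which is shown, 1 holds 1 E-box, and the Fgf5 window holds none of the motifs. Of all 32851 promoter windows of this length, 6.25% hold TAATCC, 6.02% the E-box, 16.9% the E2F core and 1.6% the octamer. Foxd3, Fgf5 and Pim2 have 21, 24 and 22 CpG dinucleotides in their windows, against a median of 6 over all windows. The shown Otx2 window has 14 and the shown Sall2 window 6, each picked as the highest of its gene. The other Otx2 windows have 6, 8 and 9, and the other Sall2 window has 0. Of the 13 member windows 6 hold at least 10, as do 37.8% of all windows. No overlap between matches of different motifs occurred in the shown windows. A match is a description of the letters only.

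The targeted genes were read first as a check of the labels. The annotation gives both Rybp probe sets to the gene together with its pseudogene. One lay between 53.9 and 102 on the OHT+ arrays and between 1785 and 2262 on the OHT- arrays, and the other ran the opposite way, from 2796 to 3443 on OHT+ arrays and from 179.9 to 336 on OHT- arrays; both passed the test (adjusted p 0.000112 each, limma). They separate treated from untreated arrays in all 3 clones. The brighter Yaf2 probe set averaged 276 ± 27.2 on the Yaf2kd arrays (SD, n = 4) and 793 ± 33.6 on the Yaf2wt arrays (SD, n = 2). The embryonic stem cell markers Pou5f1, Sox2, Nanog, Zfp42, Sall4 and Utf1 were all far above the limit for dim signal, and their summed intensity ran from 43771 to 47623 on OHT+ arrays and from 41779 to 45713 on OHT- arrays. That limit, 96.6, is the midpoint of all probe sets by mean log2 signal. Of the 12 member probe sets, 8 lay above it, namely all but the dimmer Sox3 and Lef1 probe sets and both Fgf5 probe sets.

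The first comparison asked how primed genes stood in cells treated to deplete Rybp. Otx2, Sall2, both Pou3f1 probe sets and the brighter Sox3 probe set (1435192_at) had lower signal with OHT in every clone, at 45.5% to 72.8% of the OHT- level over the 3 clones. The dim Sox3 probe set (1450485_at) was lower in 2 clones and higher in 1. Foxd3, Lef1 and Pim2 had no common direction, and Fgf5 was dim on every array. No member passed the test over all 45037 probe sets (0 of 12 member probe sets, where 0.14% of all probe sets were called and 0.0244% were called lower), and 5 of the 12 had an unadjusted p under 0.05, where 7.99% of all probe sets had. In 5 of the 8 member probe sets above the limit all OHT+ arrays lay below all OHT- arrays, where 7.34% of all probe sets above the limit did so, and over all probe sets 6.4%. The same 5 had an unadjusted p under 0.05 with a lower value, as had 5.43% of all probe sets above the limit. They include both Pou3f1 probe sets. These 5 probe sets belong to 4 of the 7 member genes above the limit, and no share over all genes was taken for that count. The members were named with earlier results of these arrays known, so these shares are a description of them. All differences below are log2 of OHT+ minus OHT-, as limma estimates over 3 clones with their SE, and adjusted p-values are Benjamini-Hochberg over all probe sets.

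**Figure D1:**
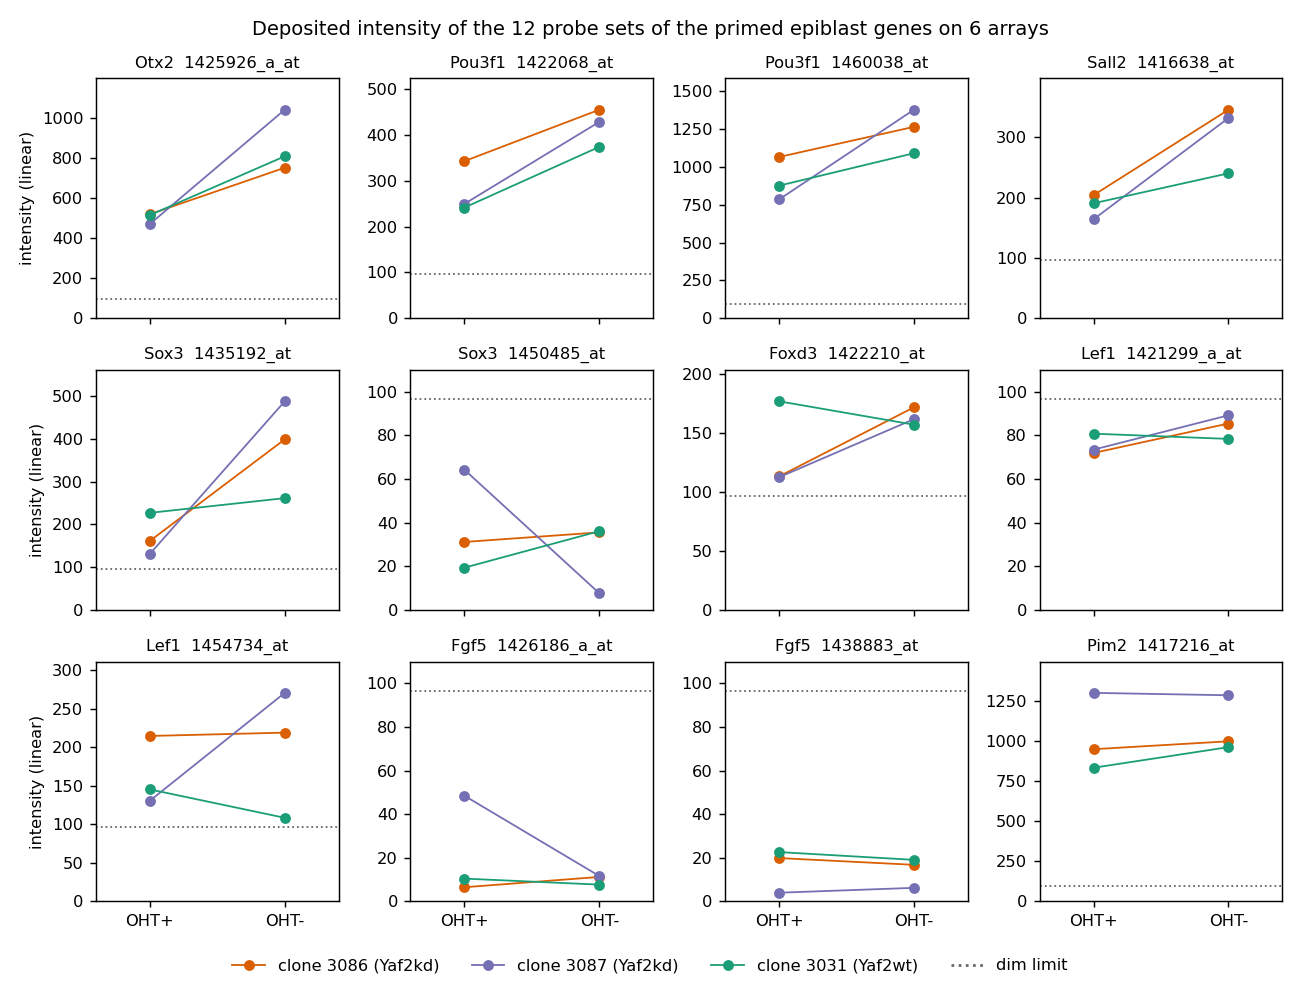
Deposited linear intensity (y axis, a scale for each panel) of each of the 12 member probe sets on the OHT+ and the OHT- array of each clone; a line joins the arrays of 1 clone and the dotted line is the dim limit of 96.6. In the Otx2, Pou3f1, Sall2 and 1435192_at (Sox3) panels every line is lower at OHT+, while the Sox3 probe set 1450485_at, the Lef1 probe set 1421299_a_at and both Fgf5 probe sets lie under the limit on every array.

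Otx2 is a bicoid-class homeodomain transcription factor that drives the departure from the naive state. Its probe set 1425926_a_at read 518 and 469.6 in Yaf2kd clones 3086 and 3087 and 514 in Yaf2wt clone 3031 with OHT, against 750.1, 1039 and 807 without it. The 3 OHT+ arrays lay close together and below all OHT- arrays, of which that of clone 3087 was highest. The treated cells thus held 69.1%, 45.2% and 63.7% of the untreated signal in clones 3086, 3087 and 3031. The estimate was -0.78 ± 0.15 (adjusted p 0.134), the lowest adjusted p of the 12 member probe sets.

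Pou3f1 is a POU-domain factor of the post-implantation epiblast and of the early neural plate. Its brighter probe set, 1460038_at, read 1066, 785 and 876 with OHT in clones 3086, 3087 and 3031, against 1265, 1378 and 1091 without it. Its other probe set, 1422068_at, read 343, 249.5 and 241 with OHT, against 455, 428 and 374 without it, in the same order of clones. Both put all OHT+ arrays below all OHT- arrays, and both were lower with OHT in all 3 clones. The estimates were -0.46 ± 0.13 (adjusted p 0.381) and -0.61 ± 0.17 (adjusted p 0.356).

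Sall2 is a zinc-finger factor of the spalt family. Its probe set 1416638_at read 204, 164 and 191 with OHT in clones 3086, 3087 and 3031, against 346, 332 and 240.5 without it. The groups did not overlap, and the OHT- arrays of the Yaf2kd clones were the highest. The estimate was -0.70 ± 0.20 (adjusted p 0.376).

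Sox3 is an X-linked SOXB1 factor of epiblast and neural progenitors, and its probe sets disagreed. The probe set above the limit, 1435192_at, read 161, 131 and 227 with OHT in clones 3086, 3087 and 3031, against 399, 488 and 261 without it. The groups did not overlap, but the Yaf2wt clone kept 86.8% of its untreated signal while clones 3086 and 3087 kept 40.4% and 26.8%. The estimate was -1.14 ± 0.28 (adjusted p 0.294), and the SD of the 3 clone differences was 0.86. The dim probe set, 1450485_at, read 31.1, 64.2 and 19.3 with OHT, against 35.5, 7.58 and 36.1 without it. It had the same direction as the bright probe set in clones 3086 and 3031 and the opposite direction in clone 3087, where the difference was 3.08 between values that are both under the limit. Its estimate was 0.66 ± 0.82 (adjusted p 0.887). On every array the signal of 1450485_at was below 96.6, so its sizes are uncertain.

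Foxd3 is a forkhead factor that epiblast cells need for their maintenance. Its probe set 1422210_at read 113, 113 and 177 with OHT in clones 3086, 3087 and 3031, against 172, 162 and 157 without it. Both Yaf2kd clones were lower with OHT and the Yaf2wt clone was higher. The estimate was -0.32 ± 0.26 (adjusted p 0.805).

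Lef1 is the DNA-binding partner through which β-catenin acts on Wnt target genes. Its probe set above the limit, 1454734_at, read 215, 131 and 146 with OHT in clones 3086, 3087 and 3031, against 219, 271 and 109 without it. It was lower with OHT mainly in clone 3087, at 48.3%, nearly level in clone 3086, at 98.0%, and higher in clone 3031, at 134%. The estimate was -0.22 ± 0.29 (adjusted p 0.897). The dim probe set 1421299_a_at ran from 71.9 to 80.8 on OHT+ arrays and from 78.4 to 89.2 on OHT- arrays. Its direction was that of the brighter probe set in each clone, with an estimate of -0.16 ± 0.33.

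Fgf5 was under the dim limit on all 6 arrays with both probe sets. The probe set 1426186_a_at read 6.49, 48.5 and 10.4 with OHT in clones 3086, 3087 and 3031, against 11.2, 11.6 and 7.69 without it. The probe set 1438883_at read 19.9, 3.98 and 22.6 with OHT, against 16.8, 6.21 and 19.1 without it. In clones 3086 and 3087 the probe sets differed in opposite directions. The estimates were 0.57 ± 0.92 and -0.0505 ± 0.90, so a difference in Fgf5 was not detectable at this signal.

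Pim2 is a serine/threonine kinase that promotes cell survival and growth. Its probe set 1417216_at read 949.7, 1301 and 834 with OHT in clones 3086, 3087 and 3031, against 999, 1286 and 963 without it. Clone 3087 was highest and clone 3031 lowest in both conditions, and the groups overlapped. The estimate was -0.0877 ± 0.15 (adjusted p 0.921).

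**Figure D2:**
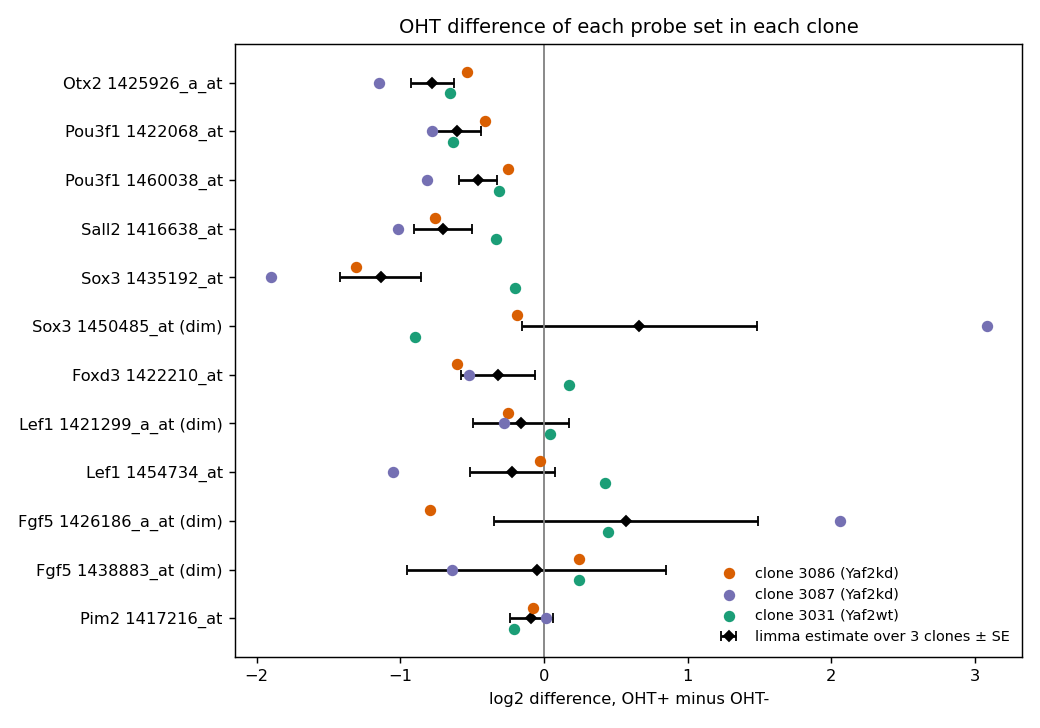
Difference between the OHT+ and the OHT- array (log2, x axis) of each clone for each member probe set, with the limma estimate over 3 clones and its SE as a black diamond and bar. All 3 clone points of Otx2, both Pou3f1 probe sets, Sall2 and the Sox3 probe set 1435192_at lie left of 0, and the points of the dim Sox3 and Fgf5 probe sets spread on both sides.

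Over the 8 member probe sets above the limit the median difference was -0.53, against -0.00746 over all 22518 probe sets above the limit. Taken by clone, the members' median was lowest in clone 3087 (-0.91), with -0.47 for clone 3086 and -0.26 for clone 3031. In 5 of these 8 probe sets all 3 clones were lower with OHT, where 18.8% of all probe sets above the limit were. The test over the 3 clones called 63 probe sets, of which 52 were higher and 11 lower with OHT, and 101 with the clone as a replicate block; no member was among either set. The 6 arrays are whole cultures, so fewer cells in a primed state and less RNA per cell cannot be told apart.

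The second comparison asked whether the OHT difference depended on Yaf2. In the Yaf2kd clones alone, 0 of 12 member probe sets passed, where 0.0377% of all probe sets were called and 0.00222% were called lower, and 5 had an unadjusted p under 0.05, where 6% of all probe sets had. The Sox3 probe set 1435192_at was at -1.60 ± 0.26 there (adjusted p 0.249). With the dim probe sets left out of the fit its adjusted p was 0.0473, and with the clone as a replicate block 0.074. It did not pass under any other alternative run. With no intensity trend the lowest adjusted p of any probe set in this comparison was 0.408 (limma). Leaving out 1 array gave log2 values from -1.75 to -1.45 for it. Otx2 was at -0.84 ± 0.20 (adjusted p 0.696), Sall2 at -0.89 ± 0.25 (adjusted p 0.749), the brighter Pou3f1 probe set at -0.53 ± 0.18 (adjusted p 0.752) and the other at -0.59 ± 0.23 (adjusted p 0.810). The Yaf2kd comparison called 17 probe sets in all and 51 with the clone as a replicate block.

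In the Yaf2wt clone the comparison is of 1 array with 1 array, so its differences are given as values with no replicate check of their own. For it the 4-group model used the spread of the Yaf2kd groups. There 0 of 12 member probe sets passed (limma, lowest adjusted p 1), where 0.00888% of all probe sets were called. An unadjusted p under 0.05 was found for 0 of 12, where 1470 of all 45037 probe sets had one. At so small a share, 0 of 12 does not set the members apart from all probe sets. Otx2 was at -0.65 and the Pou3f1 probe sets at -0.63 and -0.32. Sall2 was at -0.33, Sox3 (1435192_at) at -0.20 and Pim2 at -0.21, while Foxd3 was at 0.17 and Lef1 (1454734_at) at 0.42. Of the 12 probe sets, 7 were lower with OHT in this clone, against 10 by the estimate over the 3 clones.

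The difference of the OHT differences, Yaf2kd minus Yaf2wt, was tested in the 4-group model, which takes the spread of the 2 single Yaf2wt arrays from the Yaf2kd groups. It passed for 0 of 12 member probe sets by limma, and for 0% of all probe sets. The only member with an unadjusted p under 0.05 was the Sox3 probe set 1435192_at, at -1.40 ± 0.45 (log2 ± SE, unadjusted p 0.0138, adjusted p 1), where 2.39% of all probe sets had such a p. Lef1 (1454734_at) was at -0.96 ± 0.60, Foxd3 at -0.73 ± 0.54 and Sall2 at -0.55 ± 0.44. Otx2 was at -0.19 ± 0.35 and the Pou3f1 probe sets were at 0.0369 ± 0.41 and -0.21 ± 0.31. In Sall2, Sox3, Foxd3 and Lef1, 4 of the 8 member probe sets above the limit, both Yaf2kd clones had a lower OHT difference than the Yaf2wt clone, as had 28.6% of all probe sets above the limit.

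**Figure D3:**
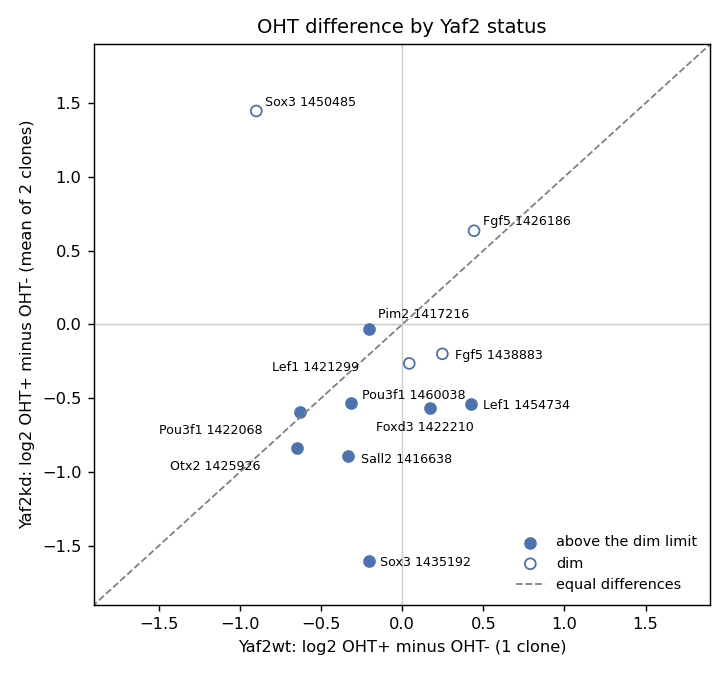
OHT difference (log2) of each member probe set in the Yaf2wt clone (x axis, 1 clone) against the mean of the Yaf2kd clones (y axis, 2 clones); open points are dim and the dashed line marks equal differences. Otx2 and both Pou3f1 probe sets lie near the line, and the Sox3 probe set 1435192_at lies below it at -0.20 and -1.60.

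Yaf2 status itself, adjusted for OHT, gave no call among the members. No member probe set passed by limma (0 of 12, and 0% of all probe sets), and 0 had an unadjusted p under 0.05, where 8.95% of all probe sets had. The Yaf2 probe sets themselves did not pass this test, at -1.52 ± 0.16 (adjusted p 0.163, limma) and -1.41 ± 0.17 (adjusted p 0.167). The absence of a call thus does not show that Yaf2 status had no effect. In 0 of 12 did the Yaf2kd and Yaf2wt arrays fail to overlap, where 18.2% of all probe sets had groups without overlap. Otx2 averaged 694 ± 260 on the Yaf2kd arrays (SD, n = 4) and 661 ± 207 on the Yaf2wt arrays (SD, n = 2), a log2 difference of 0.0354 ± 0.16 (SE). The SDs in this paragraph are over OHT+ and OHT- arrays together. They therefore hold the OHT difference and are no measure of replicate spread. Sox3 (1435192_at) averaged 295 ± 176 on the Yaf2kd arrays and 244 ± 24.4 on the Yaf2wt arrays, with a difference of 0.0559 ± 0.30. The largest difference among the members above the limit was that of Lef1 (1454734_at), which averaged 209 ± 58.0 on the Yaf2kd arrays and 127 ± 26.1 on the Yaf2wt arrays. Its estimate was 0.69 ± 0.31 (adjusted p 0.567). Pim2 averaged 1134 ± 186 on the Yaf2kd arrays and 898 ± 90.8 on the Yaf2wt arrays, an estimate of 0.33 ± 0.16 (adjusted p 0.588).

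On the OHT- arrays alone, both Yaf2kd clones read higher than the Yaf2wt clone for Sall2, Sox3 (1435192_at), Foxd3, Lef1 (1454734_at), Pim2 and both Pou3f1 probe sets. For Otx2 clone 3086 read lower and clone 3087 higher than clone 3031. On the OHT+ arrays both Yaf2kd clones read lower than the Yaf2wt clone for Sox3 (1435192_at) and Foxd3, and for Sall2 and Lef1 (1454734_at) clone 3086 was higher and clone 3087 lower. These orders rest on 2 arrays against 1 and were not tested.

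Other genes of the formative and primed epiblast, a list of 24 genes that leaves out the members, had 22 measured genes and 16 above the limit. With the brightest probe set per gene, 0 of them passed in the OHT comparison in either direction by limma, where 0.187% of all genes were called higher and 0.0275% lower. Among the 16, 10 had lower and 6 higher estimates with OHT, with a median of -0.12, against -0.00798 over all genes above the limit. The 2 largest differences among these 16 were of higher signal with OHT. Fgf15, a fibroblast growth factor, was at 0.69 ± 0.24 (adjusted p 0.495) and Etv4, an ETS factor downstream of FGF signalling, at 0.49 ± 0.21 (adjusted p 0.597).

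The naive pluripotency list, the counterpart of the primed genes, had all 16 of its genes above the limit and all 16 estimates above 0, with a median of 0.39. Fbxo15, a gene of undifferentiated embryonic stem cells, was the 1 gene of the list that passed the test (1.36 ± 0.10, adjusted p 0.000818 by limma). Over all genes 0.187% were called higher. The members, by the brightest probe set of each gene, had 7 of 7 estimates below 0 among genes above the limit, with a median of -0.46. Of these, Foxd3, Lef1 and Pim2 did not have all clones on 1 side. The remaining gene, Fgf5, was dim on every array, at -0.0505 ± 0.90 for 1438883_at and 0.57 ± 0.92 for 1426186_a_at. With Fgf5 counted by 1438883_at the median was -0.39. The family relatives of the members had 16 of 17 genes measured, 8 of them above the limit, and 0 passed. Sox1, of the same SOXB1 group as Sox3, was at -1.09 ± 0.29 (adjusted p 0.321), with an OHT+ mean of 92.2 that lies under the limit, against 192 on OHT- arrays. Pim1, a kinase closely related to Pim2, was at -0.41 ± 0.08 (adjusted p 0.177), with all 3 clones lower, and Pim2 at -0.0877 ± 0.15.

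**Figure D4:**
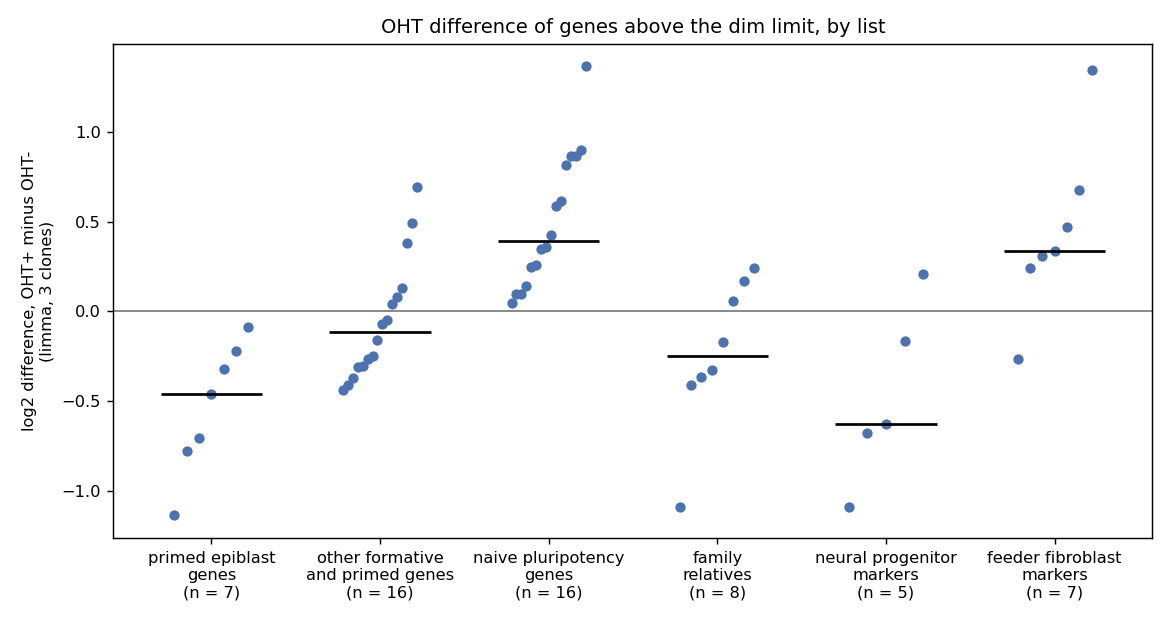
OHT difference (log2, limma estimate over 3 clones, y axis) of each gene above the dim limit, by list, with the list median as a bar and the number of genes under each name. The 7 primed epiblast genes all lie below 0 and the 16 naive genes all above it, while the other formative and primed genes lie on both sides.

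Sox3, Pou3f1 and Otx2 are also genes of neural progenitors, and most measured markers of that cell type had lower signal on the same arrays. Of 8 neural progenitor markers 7 were measured and 5 were above the limit, with 4 of these 5 lower with OHT and a median of -0.63. Their summed intensity ran from 1128 to 1398 on the OHT+ arrays and from 1430 to 1743 on the OHT- arrays, without overlap, and 1 of them lay under the limit on every array. None passed the test. Pax6 was at -0.68 ± 0.18 (adjusted p 0.317), and Map2, the 1 marker above the limit that was higher, at 0.21 ± 0.21. Hes5, dim by its mean signal, was at 1.44 ± 0.96. Sox1, named above as a relative of Sox3, is counted in this list too. The cells were grown on feeder fibroblasts or on gelatin. Feeder fibroblast markers had 9 of 10 estimates above 0, and 2 of the markers lay under the limit on every array. Pdgfrb was at 1.34 ± 0.31 (adjusted p 0.246, limma), with an OHT- mean of 78.5 that lies under the limit. Col1a1 was at 0.67 ± 0.23 (adjusted p 0.499). The summed intensity of the feeder markers was 6942 to 11034 on OHT+ arrays and 6744 to 11226 on OHT- arrays, which overlap. Most of that sum is Acta2, at 0.31 ± 0.09, and Tagln, the 1 marker with an estimate below 0, at -0.26 ± 0.15. Primitive endoderm markers summed to 1903 to 2164 on OHT+ arrays and 1738 to 1871 on OHT- arrays, also without overlap. Of these markers 1 lay under the limit on every array and 4 of 8 estimates were above 0, with Lama1 at 0.47 ± 0.13 and Dab2 at -0.19 ± 0.14. Lama1 was by far the brightest, so the sums largely follow that gene. It read 1019, 1192 and 1025 with OHT in clones 3086, 3087 and 3031, against 823, 669 and 858 without it. Mesoderm and primitive streak markers summed to 439 to 662 on OHT+ arrays and 421 to 532 on OHT- arrays, with 2 under the limit on every array, 4 of 7 estimates above 0, Mesp1 at 0.69 ± 0.30 and Eomes at -0.41 ± 0.29. Of the embryonic stem cell markers 3 of 6 were higher, with Nanog at 0.42 ± 0.08 (adjusted p 0.129) and Utf1 at -0.27 ± 0.09. In all 5 lists of cell type markers 0 genes passed by limma. The part of these other cell types in the members' differences was not tested.

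The average pattern of the 7 members above the limit, as mean centred log2 over the 6 arrays, was -0.19, -0.40 and -0.19 on the OHT+ arrays of clones 3086, 3087 and 3031, against 0.31, 0.51 and -0.0351 on their OHT- arrays. The spread between treated and untreated arrays was thus widest in clone 3087. Among 2399 other genes that were above the limit and varied over the arrays (SD of at least 0.3 on the log2 scale), the genes most like it were Srf, the serum response factor (Pearson r 0.973), Fzd2, a Wnt receptor (0.968), Tmem80 (0.968), Mybpc2, a myosin-binding protein (0.966), and Pgbd1 (0.963). The genes most opposed to it were Zfp385c (-0.990), the POU factor Pou6f1 (-0.983), Dnaic1, a dynein chain of cilia (-0.981), the naive factor Tfcp2l1 (-0.980) and AU018091 (-0.979). Tfcp2l1 read 2789, 2991 and 2968 with OHT in clones 3086, 3087 and 3031, against 1549, 1161 and 2270 without it. These likenesses are over 6 arrays that share 3 clones and were picked from many genes, so they describe the arrays only.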

How the data were processed

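The deposited table holds linear intensity values of 45101 probe sets on 6 arrays. Affymetrix Expression Console and RMA are named in the submitters' processing notes; their role, versions and any genome build are not given in the sources. All 6 arrays hold identical sorted values, as quantile normalization leaves them. After leaving out 64 control probe sets, log2 intensity of the other 45037 was analysed in limma 3.58.1 (R 4.3.3; lmFit, eBayes with an intensity trend), with Benjamini-Hochberg adjustment over all and a threshold of 0.05. The trend was used because the median replicate SD on the log2 scale was 0.75 for dim and 0.19 for brighter probe sets. OHT over 3 clones and Yaf2 status were fitted together, and the other comparisons in a 4-group model. The code was tested on simulated data.

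The labels give the clone of each array, and the OHT+ and OHT- arrays of 1 clone form a pair. The main fits did not use this pairing, which entered only in the alternative with a block for the clone. Residuals of paired Yaf2kd arrays correlated at r 0.15 above the dim limit, and the consensus correlation within clones over all probe sets was -0.0876. The labels name no separate cultures per clone, so p-values measure the spread between these arrays, whose number limits the precision. Alternatives were no trend, dim probe sets left out, log2(intensity + 16), cyclic loess, 1 probe set per gene, a block for the clone, and each array left out. Named genes were all member probe sets, Rybp, Yaf2, up to 4 passing genes of each list or otherwise the 2 with the largest difference above the limit, and the 5 genes most and the 5 least like the members. Of the probe sets, 34945 carry 1 gene symbol, 932 several and 9160 none here. The members and lists were chosen with earlier results of these data known.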

Additional observations from a re-analysis of the deposited data

How the results depend on the processing

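The OHT comparison over 3 clones called 63 probe sets. It called 0 with no intensity trend (limma, lowest adjusted p 0.296, 2956 at an unadjusted p under 0.05), 97 with dim probe sets left out and 101 with the clone as a replicate block, and 14 to 53 when 1 array was left out. The Yaf2kd comparison called 17. It called 0 with no intensity trend (2759 at an unadjusted p under 0.05), 35 with dim probe sets left out, 7 with log2(intensity + 16), 9 with 1 probe set per gene and 51 with the clone as a replicate block, and 0 to 17 when 1 array was left out. The Yaf2 comparison called 0, and 0 to 8 when 1 array was left out, the 8 without the Yaf2kd OHT- array of clone 3086. The difference of the OHT differences called 0 under each alternative run, and leaving out a Yaf2wt array gives no value for it. The cause was not tested.

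No member passed in the OHT comparison over 3 clones under any alternative run: the adjusted p of Otx2 ran from 0.0713 to 0.688 and that of Sox3 (1435192_at) from 0.144 to 0.713. Sox3 (1435192_at) in Yaf2kd cells passed only with dim probe sets left out, where fewer probe sets are tested. The Fgf5 probe set 1438883_at turned to 0.039 with log2(intensity + 16). The other reversals came from leaving out 1 array. In the OHT comparison the log2 range was -0.20 to 1.45 for Sox3 (1450485_at), -0.54 to 0.0774 for Lef1 (1454734_at), -0.28 to 1.38 for Fgf5 (1426186_a_at), -0.67 to 0.66 for Fgf5 (1438883_at) and -0.23 to 0.0251 for Pim2 (1417216_at). In the Yaf2 comparison it was -0.0788 to 0.13 for Otx2 (1425926_a_at), -0.0587 to 0.50 for Sall2 (1416638_at), -0.64 to 0.76 for Sox3 (1435192_at), -1.14 to 1.21 for Sox3 (1450485_at), -0.65 to 0.0857 for Foxd3 (1422210_at) and -0.15 to 0.16 for Lef1 (1421299_a_at). For the difference of the OHT differences it was -0.42 to 0.0469 for Otx2 (1425926_a_at), -0.19 to 0.27 for Pou3f1 (1422068_at), -0.43 to 0.00688 for Pou3f1 (1460038_at), -1.26 to 1.64 for Fgf5 (1426186_a_at), -1.61 to 0.71 for Fgf5 (1438883_at) and -0.0487 to 0.41 for Pim2 (1417216_at). Signal under the dim limit on every array limits both Fgf5 probe sets and the dim Sox3 and Lef1 probe sets.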
